A study of Mus musculus with 2 samples.

Results

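Genes that build and run the lysosome, that acidify it and that deliver cargo to it by autophagy were followed through long-read RNA sequencing of mouse heart. They were chosen by name, as protein-coding genes of the cathepsins, the LAMP proteins, the subunits and accessory proteins of the vacuolar proton pump, the ATG genes and the LC3 and GABARAP genes, together with Sqstm1, Becn1, Bnip3, Bnip3l, Psap and Grn. The annotation held 79 such genes, and 64 of them had reads, out of 15031 annotated genes with reads in either library. Replicate 1 had reads for 61 of these genes among 12838 annotated genes, and replicate 2 for 63 among 13548. The rule uses gene names and annotation.

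The heart tissue came from female B6CASTF1/J mice, an F1 hybrid strain, at 18 to 20 months of age, with no treatment, deletion or transgene named in the labels. The series is 1 group of 2 libraries, each from 2 µg of RNA, so there is no contrast between conditions, and the only comparison the design allows is between the libraries. The labels number the libraries as biological replicates, each with its own biosample, and give both the same donor entry. They do not say whether the tissue came from separate animals, and the tests measure only the spread between these samples. Reads of the 2 parental alleles were not separated. Mouse reads numbered 630211 in replicate 1 and 664319 in replicate 2.

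Lysosomes are acidic organelles in which cathepsins and other hydrolases break down proteins, lipids and sugars. Their acidity comes from the vacuolar ATPase, a rotary pump whose cytosolic V1 part burns ATP and whose membrane V0 part moves protons. In autophagy, a membrane decorated with lipid-bound LC3 and GABARAP proteins (the Atg8 family) closes around cargo and fuses with lysosomes, and the long-lived cells of the heart use this route, mitophagy included, to clear worn proteins and mitochondria.

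Of the sequences behind the results, the first set shows how the 3 annotated forms of Lamp2 end, since the reads separate these forms. LAMP2 is a major protein of the lysosomal membrane, encoded at chrX:38401357-38456454 on the minus strand, and its forms share the exons that encode the lumenal part and differ in the last exon, which encodes mainly the membrane span and the short cytosolic tail. The coding part of each last exon is given from the GENCODE transcripts (mm10), with capitals for the last 5 codons and the stop codon, where the tyrosine-based sorting signal of LAMP tails lies. The tails known for the forms identify Lamp2-202 as LAMP-2B, Lamp2-201 as LAMP-2A, the receptor of chaperone-mediated autophagy, and Lamp2-203 as LAMP-2C.
Lamp2-202, chrX:38421712-38421851: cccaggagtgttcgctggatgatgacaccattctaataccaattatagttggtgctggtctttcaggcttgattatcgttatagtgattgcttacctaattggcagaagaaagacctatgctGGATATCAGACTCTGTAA
Lamp2-201, chrX:38405432-38405571: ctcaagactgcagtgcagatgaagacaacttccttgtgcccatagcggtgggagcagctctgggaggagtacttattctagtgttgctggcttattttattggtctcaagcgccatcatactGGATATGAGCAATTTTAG
Lamp2-203, chrX:38402139-38402281: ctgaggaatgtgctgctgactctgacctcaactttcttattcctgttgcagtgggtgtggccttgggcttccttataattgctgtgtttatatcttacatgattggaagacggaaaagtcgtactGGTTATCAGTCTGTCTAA
Aligned from the stop codon without gaps over 140 bases, Lamp2-202 had 75 identical bases with Lamp2-201 and 75 with Lamp2-203, and Lamp2-201 and Lamp2-203 had 72. A read that reaches the last exon therefore names its form.

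The other sequence shows the new splice donor found in Atp6v0e, the gene of the small e subunit of V0. It is the end of exon 3 of Atp6v0e-201, on the plus strand, and capitals mark the 16 bases that the new model leaves out.
Atp6v0e-201, chr17:26695455-26695484: agacgcgctgcacaGTGCCTAGGCACTGAG
The stop codon of the annotated reading frame ends at base 26695448, ahead of the printed bases, so that both forms keep the same 81 codons.

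Levels are given as CPM, the number of reads per 1000000 mouse reads after TMM scaling of the library sizes, and 1 read was worth 1.61 and 1.48 CPM in replicates 1 and 2. A long read stands for 1 molecule whatever its length, so that CPM was not divided by length. Where genes are set against each other, CPM per kilobase of the gene's most abundant known transcript is added. The length used is the annotated one, which can differ from that of the reads, so that orders per kilobase are approximate. SDs are over the 2 libraries (n = 2), and brackets hold exact 95% intervals (Clopper-Pearson for shares), which cover counting error only. Tests between the libraries set their difference against counting error as well, and so compare these libraries, not conditions. In bulk tissue, fewer cells of a type and less RNA per cell cannot be told apart.

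The 64 genes took 5566 reads in replicate 1 and 6269 in replicate 2, or 0.883% and 0.944% of the mouse reads. Summed over all of them, the level was 8957 and 9305 CPM in replicates 1 and 2, a mean of 9131 ± 246 CPM. A few genes carried most of it. The 5 most abundant, Gabarapl1, Ctsd, Ctsb, Map1lc3b and Bnip3, held 50.4% of the reads in replicate 1 and 52.4% in replicate 2, and the 10 most abundant held 68.4% and 69.9%. Per kilobase, 9 of the same 10 genes led, with Gabarapl1 at 830 CPM per kilobase, Ctsd at 698 and Map1lc3a at 396, and Ctsb made way for Atp6v1f. The length used for Gabarapl1 is that of Gabarapl1-201, which only 33 and 36 of its reads matched, and without reads of the genomic class its level was 61.6 CPM.

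**Figure D1:**
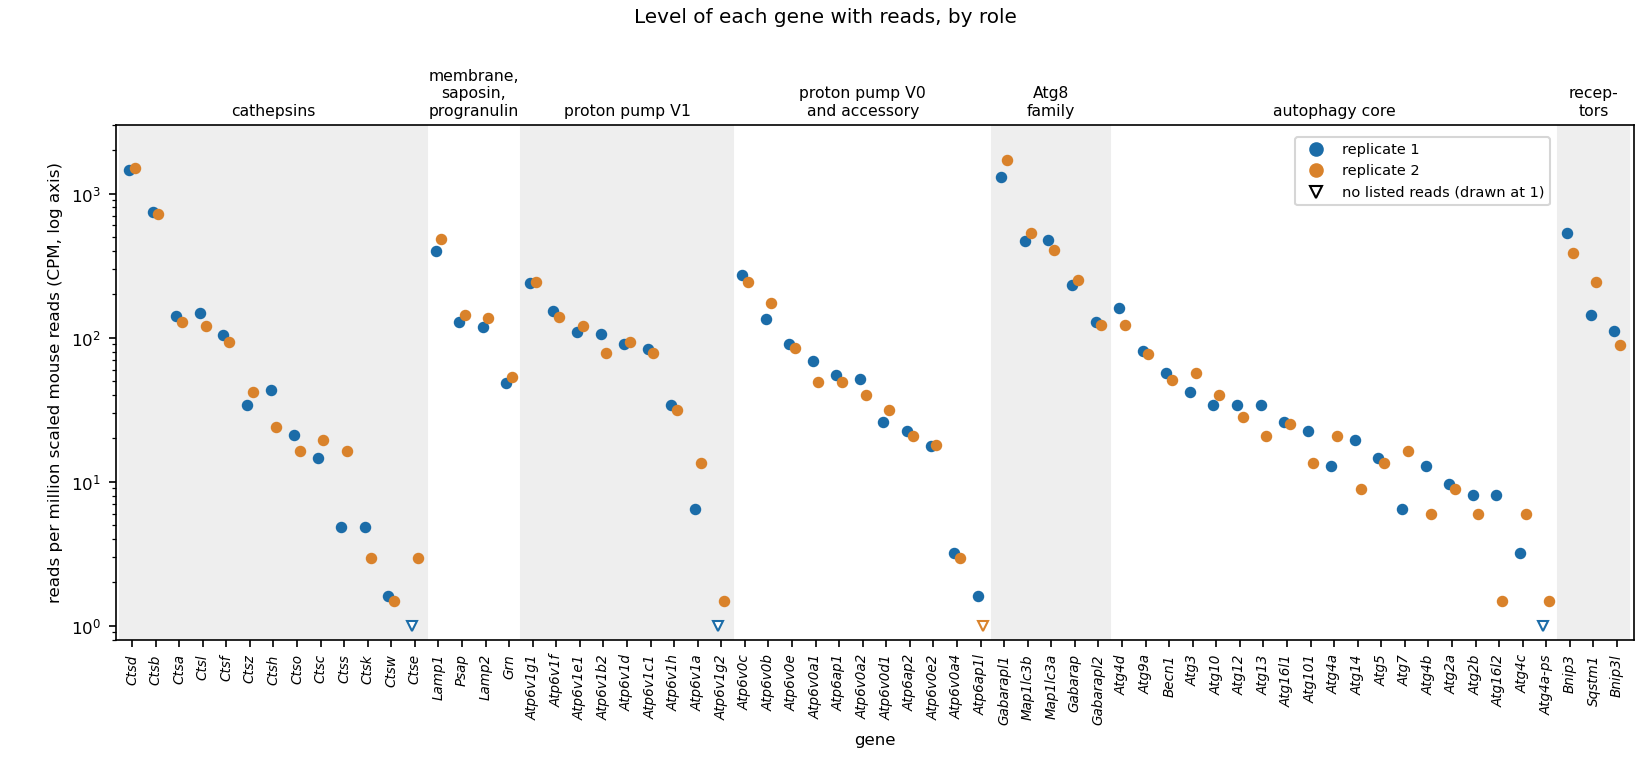
Level of each of the 64 genes with reads, as CPM on a log axis, grouped by role and ordered by mean level within a role, with 1 point for each library and open triangles for genes without listed reads in a library. Gabarapl1 and Ctsd lie above 1000 CPM in both libraries, and most genes of the autophagy core lie below 100 CPM.

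Cathepsins, the proteases of the lysosome, had reads for 13 of 19 genes and summed to 2716 and 2703 CPM in replicates 1 and 2, with an SD of 9.42 CPM. Ctsd, the gene of the aspartic protease cathepsin D (chr7:142375911-142388038), had 906 and 1017 reads in replicates 1 and 2, a level of 1484 ± 36.5 CPM. Ctsb, the gene of a cysteine protease (chr14:63122462-63145923), had 460 and 489 reads, a level of 733 ± 10.2 CPM. These genes lay close together in the libraries, with ratios of replicate 1 to replicate 2 of 0.966 [0.882, 1.06] for Ctsd and 1.02 [0.896, 1.16] for Ctsb. Ctsa, the gene of the carboxypeptidase that also protects other lysosomal enzymes, had 88 and 87 reads (135 ± 8.82 CPM), and with known transcripts only, relative to all reads of that kind, its level was 29.8 CPM. The cysteine protease genes Ctsl, with 92 and 81 reads (134 ± 19.7 CPM), and Ctsf, with 65 and 63 reads (99.1 ± 7.84 CPM), completed the 5 most abundant. Ctsd was also the most abundant cathepsin per kilobase, at 698 CPM against 155 for Ctsb, 68.1 for Ctsl and 53.4 for Ctsa. Ctsz, Ctsh, Ctso, Ctsc and Ctss had between 14 and 49 reads over both libraries. Ctsk, Ctsw and Ctse had 5, 2 and 2.

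LAMP1, the other abundant protein of the lysosomal membrane, led its group. Lamp1 (chr8:13159161-13175338) had 246 and 327 reads (441 ± 63.3 CPM), and its ratio of replicate 1 to replicate 2 was 0.816 [0.688, 0.965], which did not pass correction (exact binomial test, adjusted p = 0.307). Psap, the gene of the precursor of the saposins, had 80 and 97 reads (136 ± 10.8 CPM), and 42.0 CPM with known transcripts only. Lamp2 had 74 and 92 reads (128 ± 12.4 CPM). Grn, the gene of progranulin, had 30 and 36 reads (50.9 ± 3.65 CPM). All 4 were higher in replicate 2, none beyond the test's threshold, and the group summed to 692 and 819 CPM. Lamp3 and Lamp5 had no listed reads, and a count of 0 allows an expected count of up to 3 reads in a library.

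By gene symbol, which also takes in Atp6v1fnb, the V1 part of the proton pump had reads for 9 of 14 genes and summed to 821 and 800 CPM. Atp6v1g1, a subunit of the stalk that holds the pump still, had 148 and 165 reads (242 ± 4.78 CPM). Atp6v1f, a subunit of the central rotor, had 95 and 93 reads (145 ± 10.5 CPM). Atp6v1e1, another stalk subunit, had 68 and 81 reads (115 ± 7.64 CPM). Atp6v1b2, a subunit of the ATP-burning ring, had 66 and 53 reads (92.4 ± 19.5 CPM). Atp6v1d, the rotor shaft, had 56 and 63 reads (91.8 ± 2.40 CPM). The catalytic partner of Atp6v1b2 in the ring, Atp6v1a, had only 4 and 9 reads, although the ring holds both subunits in equal number. That was 9.90 CPM against 92.4 for Atp6v1b2, or 2.34 CPM per kilobase against 32.7. The leading known transcript is longer for Atp6v1a, at 4234 bases against 2825. Over 54 of the chosen genes, longer leading known transcripts went with lower levels (Spearman correlation -0.31). Any part of transcript length in the level of Atp6v1a was not tested.

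The V0 part and the accessory proteins had reads for 11 of 12 genes and summed to 740 and 714 CPM. Atp6v0c, the gene of the proteolipid ring through which protons pass (chr17:24163866-24169702), had 168 and 164 reads (257 ± 19.0 CPM), and its annotated pseudogene copies could share reads with it. Atp6v0b, a second ring subunit, had 83 and 118 reads (154 ± 29.4 CPM) and a ratio of replicate 1 to replicate 2 of 0.763 [0.569, 1.02]. Atp6v0e had 56 and 57 reads (87.4 ± 3.89 CPM), Atp6v0a1, a form of the large membrane subunit, had 43 and 33 (59.1 ± 14.3 CPM, or 39.0 CPM with known transcripts only), and the accessory gene Atp6ap1 had 34 and 33 (51.8 ± 4.05 CPM). Of the paralogues of Atp6v0a1, Atp6v0a2 had 32 and 27 reads and Atp6v0a4, known from kidney and inner ear, had 2 in each library.

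The Atg8 family had reads for all 5 genes and summed to 2615 and 3024 CPM. Gabarapl1 (chr6:129533160-129542346) had 814 and 1154 reads (1511 ± 285 CPM). Map1lc3b, whose product is the LC3 form most used to follow autophagosomes, had 291 and 360 reads (501 ± 46.7 CPM), and Map1lc3a had 297 and 272 (441 ± 52.5 CPM). Gabarap had 143 and 169 reads (240 ± 14.7 CPM) and Gabarapl2 had 80 and 82 (125 ± 4.96 CPM). By mean level over reads of all classes Gabarapl1 stood first, although Ctsd had more reads in replicate 1, and this place rests on single-exon reads that are described with the read classes. Without the genomic class it had 35 and 38 reads (61.6 ± 0.222 CPM), rank 26 by CPM in place of rank 1, and below the other 4 genes of the family on that scale.

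The core genes of autophagy, taken by symbol and counting Atg4a-ps with 1 read, had reads for 19 of 20 genes at low levels, 584 and 524 CPM in all. Atg4d, a protease that trims and releases Atg8 proteins, had 100 and 83 reads (142 ± 26.7 CPM). Atg9a, a lipid scramblase that feeds the growing membrane, had 50 and 52 reads (78.8 ± 2.31 CPM), and 39.98 CPM with known transcripts only. Becn1, a subunit of the lipid kinase complex that starts the membrane, had 35 and 34 reads (53.4 ± 4.14 CPM). The conjugation enzyme genes Atg3, with 26 and 38 reads (49.1 ± 10.3 CPM), and Atg10, with 21 and 27 (36.9 ± 4.44 CPM), followed. Per kilobase Atg4d had 23.9 CPM, against 23.9 for Atg3 and 23.3 for Atg10. The length used for Atg4d is the 5951 annotated bases of Atg4d-201. A new spliced model of the gene, with 7 and 1 reads in replicates 1 and 2, was listed at 1897 and 1884 bases. With reads of such a length, the value of Atg4d per kilobase would be higher. Atg7 and Atg5, which act in the same conjugation steps, had 15 and 18 reads over both libraries.

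Among the cargo receptors, Bnip3 and Bnip3l are receptors for mitophagy on the outer mitochondrial membrane and Sqstm1 encodes p62, which ties ubiquitinated cargo to LC3. Bnip3 (chr7:138890836-138909519) had 332 and 262 reads (462 ± 103 CPM), Sqstm1 (chr11:50199366-50210827) had 89 and 164 (193 ± 70.9 CPM), and Bnip3l had 69 and 60 (100 ± 15.5 CPM). Pseudogene copies of Bnip3l are annotated, so its reads are less certain. The 15 genes with no listed reads were Atg9b, Atp6v0d2, Atp6v1b1, Atp6v1c2, Atp6v1e2, Atp6v1fnb, Atp6v1g3, Ctsg, Ctsj, Ctsll3, Ctsm, Ctsq, Ctsr, Lamp3 and Lamp5. Several are known for other tissues, such as the kidney pump subunit Atp6v1b1 and the placental cathepsins Ctsj, Ctsm, Ctsq and Ctsr.

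With 54 of the 64 genes holding the minimum of 10 reads over both libraries, 3 were called between the libraries, where 2.07% of all 7545 genes tested were called (exact binomial test with Benjamini-Hochberg adjustment over all genes, adjusted p below 0.05). Bnip3 was the gene higher in replicate 1, where 0.861% of all genes were called. Gabarapl1 and Sqstm1 were higher in replicate 2, where 1.21% of all genes were called. With 3 calls, the difference of these shares was not tested. The median log2 ratio of replicate 1 to replicate 2 was 0.09 over the 54 genes and 0.00 over all genes, and 44 of the 54 lay within 1.5-fold.

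Bnip3 stood at 534 and 389 CPM in replicates 1 and 2, a 1.37-fold difference [1.16, 1.62] with adjusted p = 0.00893 by the exact binomial test. Sqstm1 stood at 143 and 243 CPM, 1.70-fold higher in replicate 2 [1.31, 2.23] with adjusted p = 0.00387 by the same exact test. Bnip3l had 111 and 89.1 CPM, a ratio of 1.25 [0.869, 1.79] in the same direction as Bnip3. Its interval holds both equal levels and the ratio of Bnip3, so that whether Bnip3l followed Bnip3 cannot be told. Gabarapl1 stood at 1310 and 1713 CPM, 1.31-fold higher in replicate 2 [1.19, 1.43] with adjusted p = 5.76e-07 by the exact binomial test. That call was carried by the genomic class, with 779 and 1116 reads. With this class left out the ratio of replicate 2 to replicate 1 was 1.01 [0.618, 1.64] and the adjusted p was 1 by the exact binomial test, while Bnip3 (adjusted p = 0.00871) and Sqstm1 (adjusted p = 0.00102) kept their calls.

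**Figure D2:**
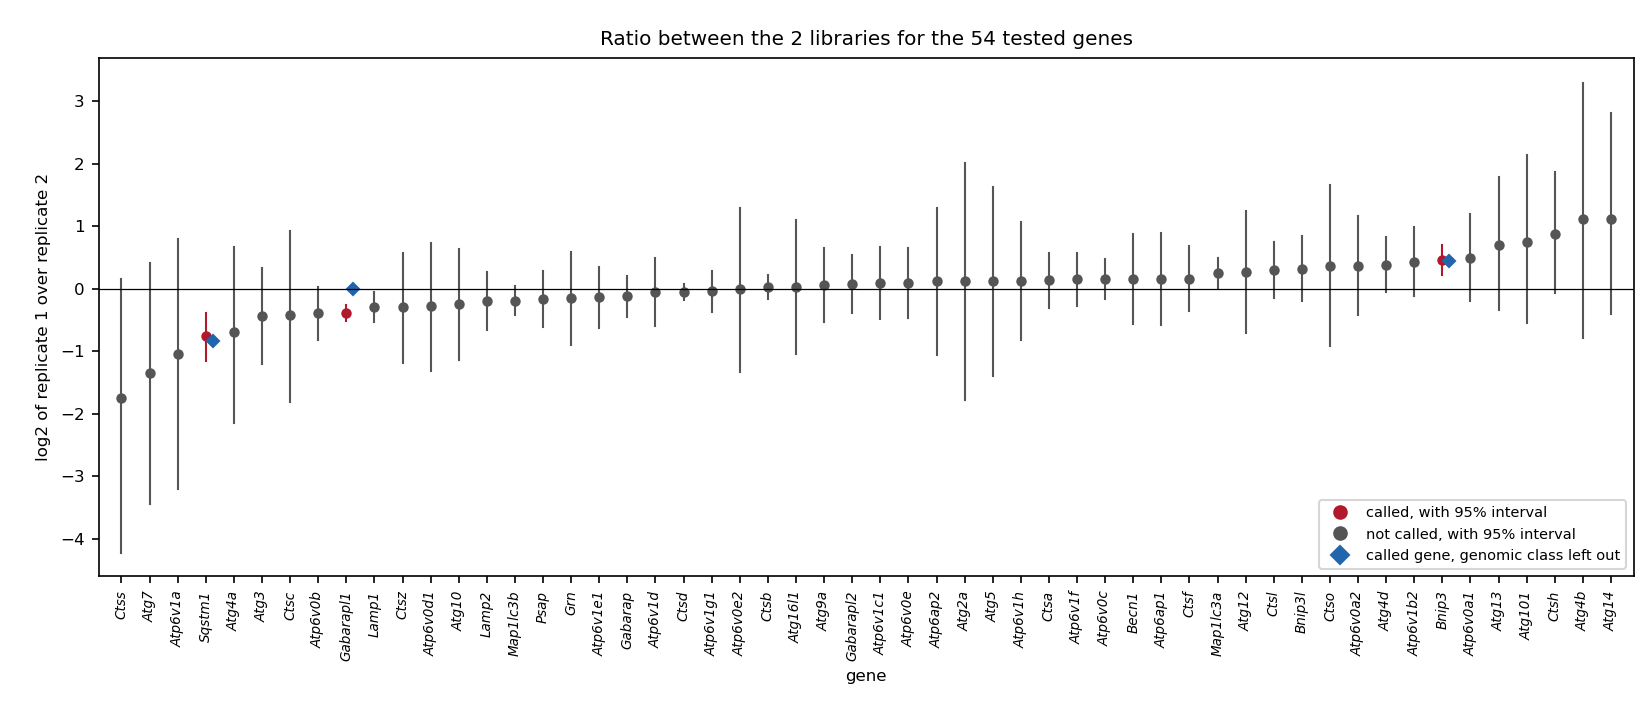
Ratio between the libraries for the 54 tested genes, as the log2 of replicate 1 over replicate 2, with exact 95% intervals as bars. Red points are the 3 called genes, and blue diamonds give their ratio with the genomic class left out, which moves Gabarapl1 to 0.

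Several lists of marker genes, of cells of the heart and of other cells, differed between the libraries, and this stands beside the 3 calls. The lists were chosen with earlier results of these data known, so that their calls are a description and not a test. Over all genes tested, 0.861% were called higher in replicate 1 and 1.21% higher in replicate 2. The heart muscle markers Myh6, Tnnt2, Tnni3, Actc1, Ryr2 and Pln, all 6 present, summed to 34340 and 31587 CPM in replicates 1 and 2, with Myh6 and Pln called higher in replicate 1. The 4 atrial muscle markers summed to 1806 and 4318 CPM, all called higher in replicate 2, and the 4 fat cell markers to 41.8 and 567 CPM, with 3 called higher in replicate 2. The 5 airway epithelium markers had no reads in replicate 1 and 637 CPM in replicate 2, where 4 were called higher, with Sftpc at 0 in both. The 5 erythroid markers, all called higher in replicate 1, summed to 30391 and 11784 CPM. Macrophages, which are rich in lysosomes, had reads for all 9 markers, at 323 and 425 CPM. Lyz2 alone was called, higher in replicate 2 (64 and 123 reads). The other macrophage markers did not share a direction. C1qc lay at 56.3 and 56.4 CPM, Pf4, Cd68 and Mrc1 were higher in replicate 1, and C1qa, C1qb, Csf1r and Adgre1 were higher in replicate 2. The 5 fibroblast markers summed to 2451 and 2853 CPM with Col3a1 called higher in replicate 2, and the 5 endothelium markers summed to 341 and 327 CPM with none called. The part of these cell types in the ratios of Bnip3, Sqstm1 and Gabarapl1 was not tested.

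Around the genes chosen by name, a wider list of 85 genes of the same pathways was counted, and 83 had reads. It held 26 lysosomal hydrolases, 18 genes of lysosomal membrane and transport, 13 of the transcription factors and signalling proteins that sense lysosomes, and 28 autophagy genes outside the naming rule. Of 67 tested, 0 were called by the exact binomial test, where 2.07% of all genes were called, and 2 had an unadjusted p below 0.05, with 0 calls under each of the other 6 settings as well. The list summed to 5833 and 5844 CPM. Its most abundant gene was Pink1, the kinase that marks damaged mitochondria for mitophagy, with 823 and 809 reads (1263 ± 87.3 CPM). Hspa8, the chaperone of chaperone-mediated autophagy, had 700 and 821 reads (1173 ± 65.2 CPM). Lamtor1, which anchors mTORC1 signalling on lysosomes, had 130 and 164 reads (226 ± 24.2 CPM), the acid sphingomyelinase gene Smpd1 had 138 and 118 (199 ± 33.2 CPM), and Rab7, a small GTPase of late endosomes, had 122 and 129 (194 ± 3.42 CPM).

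Each read was assigned by the authors to a transcript model of 1 of 5 classes. Known models match an annotated transcript, incomplete splice matches (ISM) follow part of one, NIC models join annotated splice sites in a new combination, NNC models use a splice site that is not annotated, and genomic models overlap the gene but match none of these. Known models held 72.8% of the reads of these genes in replicate 1 [71.6, 74.0] and 68.2% in replicate 2 [67.0, 69.4], where all annotated genes had 69.9% and 68.6%. Genomic models held 16.5% and 20.2%, against 9.37% and 8.30% over all annotated genes, and the single gene Gabarapl1 supplied 779 of 918 and 1116 of 1265 of those reads. Without Gabarapl1, a choice made after its values were seen, genomic models held 2.93% and 2.91% of the reads, and known models held 84.6% and 82.9%. ISM reads then made up 9.15% and 10.5%, against 15.6% and 18.1% over all annotated genes, from which no gene was dropped. With the genomic class left out on both sides, known models held 87.2% and 85.5% of the reads of the chosen genes. All annotated genes then had 77.2% and 74.8%.

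**Figure D3:**
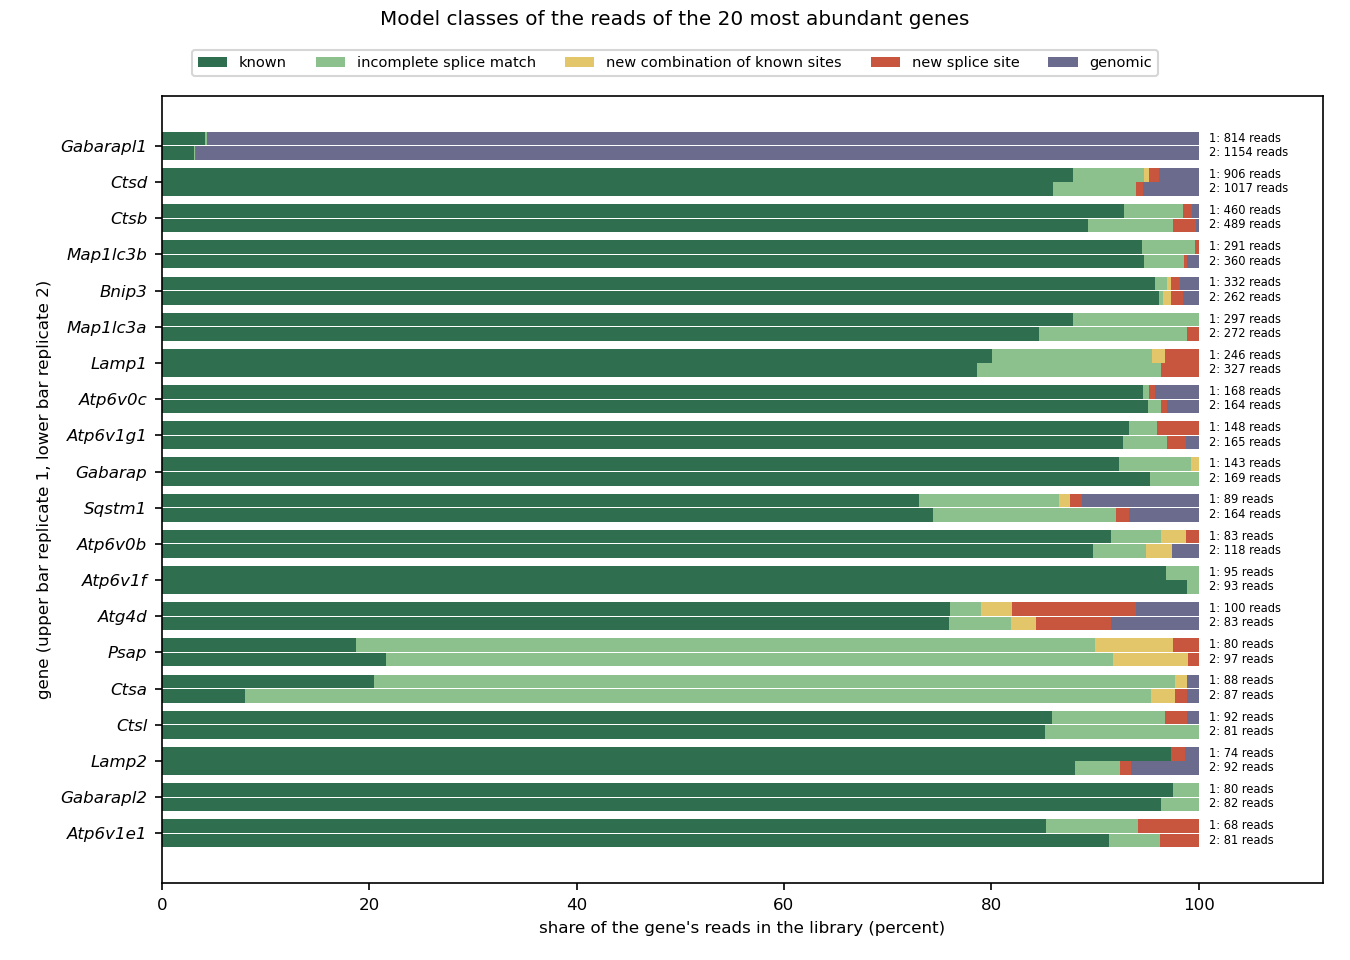
Share of each gene's reads in the 5 model classes for the 20 most abundant genes, with replicate 1 as the upper and replicate 2 as the lower bar and the read number at the right. Gabarapl1 is almost wholly genomic, Psap and Ctsa are mostly incomplete splice matches, and known models fill most of the other bars.

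Gabarapl1 was read almost only within its last exon. Its genomic reads were single-exon and cross no intron, so that they do not show whether the RNA was spliced, and 1 model held 779 and 1114 of them, listed as chr6:129541205-129542346 in replicate 1 and from base 129541434 in replicate 2. All of it lies in the last exon (129541102 to 129542346), downstream of the coding sequence, and 0 of its bases are coding. The spliced transcript Gabarapl1-201 had 33 and 36 reads. Among 1385 multi-exon protein-coding genes that reached 50 reads in both libraries, 15 (1.08%) had more than 90% of reads in the genomic class in both libraries, and the median gene had 1.09% and 1.20%. Atg9a was the other chosen gene with over 20% in both libraries, at 17 of 50 and 22 of 52 reads in 1 model, and 11.6% of the 1385 genes passed that mark. Ends of single-exon models in these files can coincide with ends of other models, with spans as short as 7 bases in Atg9a, so that they do not give the ends of the reads.

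Psap was read mainly from its last exon as well. A single-exon ISM model of chr10:60301694-60302594 held 48 of 80 reads in replicate 1, with an interval of 48.4% to 70.8%, and 55 of 97 in replicate 2, with an interval of 46.3% to 66.7%. Its span of 901 bases holds 33 coding bases, and Psap-201, with 14 exons, had 13 and 12 reads. Smaller shares of the same kind occurred in Lamp1, with 28 of 246 and 44 of 327 reads in a model of the last exon, and in Map1lc3a, with 30 of 297 and 36 of 272. Of the 1385 multi-exon protein-coding genes, 20.4% had over 20% of reads in single-exon models in both libraries. The median of these genes was 5.36% and 5.66%. Among the chosen genes at that depth it was 3 of 27 (11.1%), namely Atg9a, Gabarapl1 and Psap.

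The leading model of Ctsa began downstream of the annotated first exon. This model, an ISM with 15 exons, held 61 of 88 reads in replicate 1, 69.3% [58.6, 78.7], and 63 of 87 in replicate 2, 72.4% [61.8, 81.5]. It has every intron of Ctsa-201 except the first and starts inside the second exon (164833724 to 164833850), at base 164833779 in replicate 1 and 164833807 in replicate 2. RefSeq (GRCm38.p6) lists a second start of this gene at base 164833773, and the model began 6 and 34 bases after it. The annotated coding sequence of Ctsa-201 begins at base 164833797, so that the start listed in replicate 2 lies inside it. Listed model ends may differ from the ends of the reads. The known transcript Ctsa-202, which starts upstream at base 164832873, had 16 and 7 reads. The bases around the second start hold the word TCACGTGA at 2 positions, the centre of the CLEAR element that the transcription factor TFEB binds in lysosomal genes, marked with capitals in the lines that follow (plus strand, read from RefSeq promoter windows).
Ctsa, chr2:164833749-164833778: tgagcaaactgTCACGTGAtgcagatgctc
Ctsa, chr2:164833766-164833795: gatgcagatgcTCACGTGAccagagctaca
Ctsd has the same word upstream of its RefSeq start, on the minus strand, at bases inside the GENCODE span of the gene, which reaches base 142388038. It is shown because Ctsd was the most abundant cathepsin.
Ctsd, chr7:142387908-142387937: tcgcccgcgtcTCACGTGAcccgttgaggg
Promoter windows from 250 bases before to 50 bases after a start were at hand for 62 of the 79 genes (78.5%), too few for a valid comparison of shares, and the following is a description only. CACGTG, which equals its own reverse complement and is part of the longer word, occurred for 15 of the 62 genes and for 8.09% of 27025 genes in the table. TCACGTGA, also equal to its reverse complement, occurred for 6 of the 62, namely Atg3, Atp6v0d1, Atp6v0e, Atp6v1a, Ctsa and Ctsd, and for 1.12% of all genes in the table. These 6 ranged from 13 reads over both libraries for Atp6v1a to 1923 for Ctsd.

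For most of these genes a single transcript dominated. In the 36 genes with 20 reads or more per library, and with genomic reads set aside, the leading model was a known transcript in 34, and Psap and Ctsa were the exceptions. The leading model held a median of 88.6% of the reads in replicate 1 and 84.6% in replicate 2, and over 80% in both libraries in 22 genes. It held under 50% in both libraries in Atg9a, Atp6v0a1 and Atp6v1h. Leading shares differed between the libraries in 0 of 42 tested genes, where 1.73% of all 4223 genes tested were called (Fisher's exact test with Benjamini-Hochberg adjustment). Ctsb alone had an unadjusted p below 0.05 by the same exact test, with Ctsb-201 at 93.2% of 457 reads and 89.5% of 488. Of the reads in known models, 98.1% and 98.5% were in protein-coding transcripts. Map1lc3a-203 made up 71 and 59 of the 72 and 60 reads in known processed transcripts.

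Lamp2 was expressed mainly as the form LAMP-2B. Of 73 reads in replicate 1 that reached an annotated last exon, 53 ended in that of Lamp2-202, 72.6% [60.9, 82.4], and in replicate 2 it was 56 of 85, 65.9% [54.8, 75.8]. The LAMP-2A exon of Lamp2-201 had 15 and 25 reads, 20.5% [11.98, 31.6] and 29.4% [20.0, 40.3]. The LAMP-2C exon of Lamp2-203 had 5 and 4 reads, 6.85% [2.26, 15.3] and 4.71% [1.30, 11.6]. The order of the forms was the same in both libraries, with intervals of the first and second form that did not overlap in either. Shares between libraries differed by no more than counting error allows, with p = 0.392, 0.271 and 0.734 for the 3 forms by Fisher's exact test, unadjusted. Shifts within these intervals were not detectable at this depth.

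Atp6v0e used the new donor in a similar share of reads in both libraries. The junction from base 26695468 to 26699212 was read 16 times in replicate 1 and the annotated junction from 26695484 was read 40 times, a share of 28.6% [17.3, 42.2]. In replicate 2 the reads were 17 and 38, a share of 30.9% [19.1, 44.8], with p = 0.837 for the difference by Fisher's exact test. No other NNC model of these genes reached 5 reads in both libraries. The only single NIC model at that mark was in Atp6v0a1, with 21 exons and 13 of 43 and 11 of 33 reads, beside 18 and 11 for the known Atp6v0a1-203. Summed over models, 2 more unannotated introns reached 5 reads in both libraries. In Atp6v1h, a regulatory subunit of V1, 3 NIC models shared the intron between bases 5089111 and 5095615 of chromosome 1, with 9 and 8 reads, and known forms of the gene had 6 and 11. In Psap, 4 models shared the intron between bases 60296006 and 60299098 of chromosome 10, with 7 and 8 reads. Both of its ends lie only a few bases from those of an annotated intron of Psap-201. Its models were of the ISM, NIC and NNC classes, although ISM models follow part of an annotated transcript. Whether it is distinct from the annotated introns was not tested.

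Map1lc3a and Bnip3l each showed 2 known transcripts in stable proportion. Map1lc3a-201, which encodes LC3A, had 190 of 297 reads in replicate 1 and 171 of 272 in replicate 2, 64.0% [58.2, 69.4] and 62.9% [56.8, 68.7]. Map1lc3a-203, annotated as a processed transcript without a coding sequence, begins at base 155276889, inside the first intron of Map1lc3a-201, and had 71 and 59 reads, 23.9% [19.2, 29.2] and 21.7% [16.9, 27.1]. Bnip3l-201 had 43 and 41 reads, and Bnip3l-202, which carries 7 exons in place of 6, had 12 and 10. Sqstm1-202 had 53 and 95 reads, and Sqstm1-201, annotated to end 786 bases further downstream, had 12 and 27, so that both forms were higher in replicate 2. For each of these transcripts the intervals of the libraries overlapped.

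**Figure D4:**
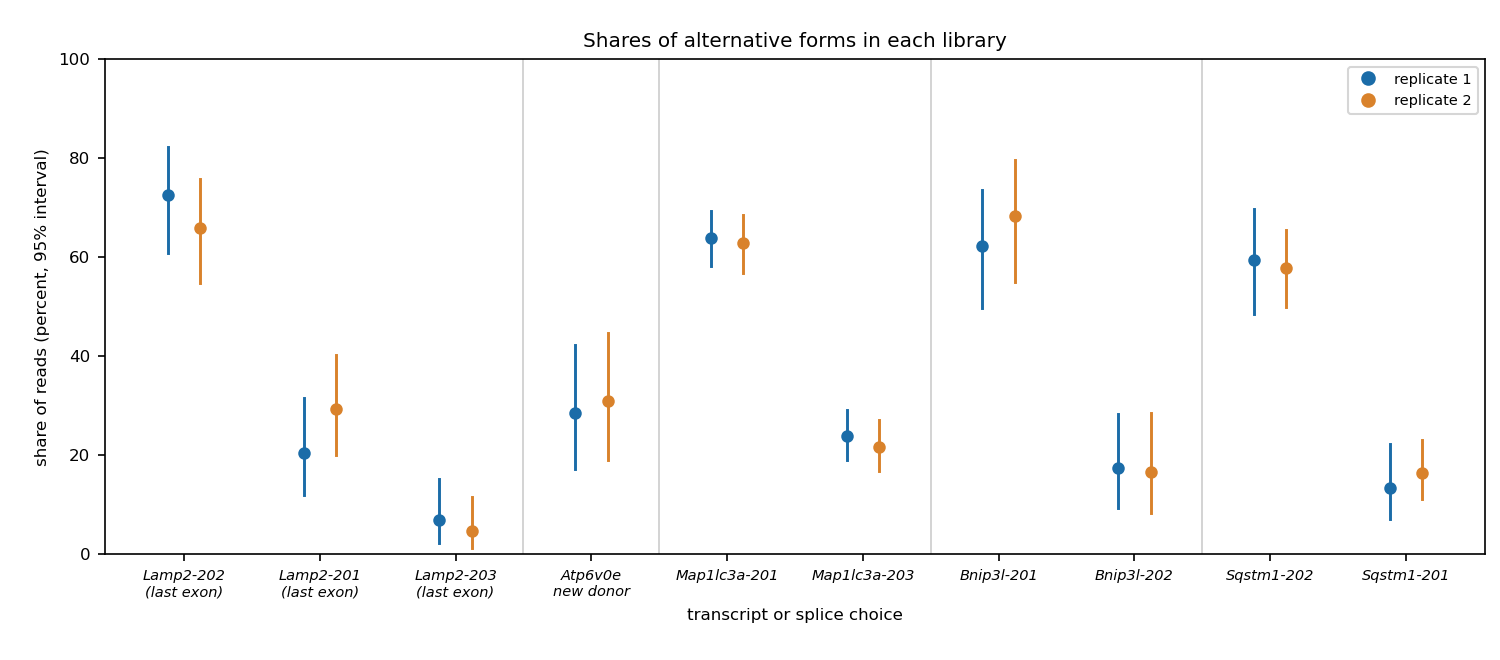
Shares of alternative forms in each library, in percent with exact 95% intervals, over reads that reach a Lamp2 last exon, over reads across the Atp6v0e junction, and over all reads of the gene for Map1lc3a, Bnip3l and Sqstm1. Lamp2-202 lies above Lamp2-201 and Lamp2-203 in both libraries, and the Atp6v0e donor lies at 28.6% and 30.9%.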

How the data were processed

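For each library the authors deposited a raw count of reads for every transcript model, with its gene and class, and exon coordinates with a number of exons and a length for each model. The deposited notes name mm10 and GENCODE M21, and the files name TALON as source. No aligner, version or filter was given in the sources used here. Rows at 0 are not listed. The genes, lists and tests were chosen with earlier results of these data known.

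Counts were summed here per annotated gene, spike-in control RNAs left out. New models were matched between libraries by intron chain, single-exon ones by at least 50% reciprocal overlap. Library sizes were scaled by TMM (edgeR 4.0.16, R 4.3.3), with DESeq2 1.42.0 size factors as an alternative. Genes with at least 10 reads were compared by an exact two-sided binomial test, and leading shares (at least 10 reads in each library, genomic class left out) by Fisher's exact test, both with Benjamini-Hochberg adjustment over all genes at 0.05. Printed log2 ratios add 0.5 reads to each library. Statistics were tested on simulated data and run in Python 3.11.15 with scipy 1.17.1.

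Named are the 5 most abundant genes of each role, called genes, the Atg8 family, Lamp2, genes with a new-splice model of at least 5 reads in each library, and genes without reads. Other genes given with values were named after these were seen. Gene coordinates are those of GENCODE M21, and promoter windows those of RefSeq.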

Additional observations from a re-analysis of the deposited data

Results flagged for a closer look

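Reads in unannotated loci on the strand opposite to these genes belong to no comparison and exceeded 3 reads in each library at 2 genes. At Psap such loci held 11 reads in replicate 1 and 10 in replicate 2, and at Atg3 they held 5 and 7, all in single-exon models. The sources used here do not say whether the authors' counting used strand, so these reads and those of the genes themselves cannot be told apart with certainty.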

How the results depend on the processing

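Calls between the libraries numbered 3 with total mouse reads or DESeq2 size factors as library sizes, without a read minimum and at 50 reads. Over all genes, these settings called 157 of 7545, 156 of 7545, 129 of 15031 and 161 of 2897. At 50 reads, 33 of the chosen genes were tested. Calls numbered 2 with known transcripts only or without the genomic class, where 102 of 5399 and 216 of 6712 of all genes were called. In those last settings Gabarapl1 lost its call, with a log2 ratio of replicate 1 to replicate 2 of -0.39 in the reported setting, 0.0185 with known transcripts only, where the direction reversed, and -0.01 without the genomic class. Bnip3 and Sqstm1 kept direction and call in all 6 settings. Leading shares gave 0 calls among these genes in all 3 alternatives, in which 122 of 4765, 0 of 3386 (known transcripts only) and 64 of 2740 genes were called in all, with 0 or 1 genes at an unadjusted p below 0.05 (Fisher's exact test). The summed level was 9765 CPM with known transcripts only, 8141 CPM without the genomic class (each relative to reads of that kind) and 7620 CPM without Gabarapl1, an alternative chosen after seeing the data, and 8957 to 9305 CPM with 1 library left out. The known share was 86.3% without the genomic class, where all annotated genes had 76.0%, and 83.7% without Gabarapl1. With 1 library left out it was 68.2% to 72.8%. Of the other 29 tested genes picked for naming in this report, none was called in any setting, and Ctsb and Atp6v1d changed sign around 1-fold. Among the chosen genes not picked for naming, Atp6v1h went from a log2 ratio of 0.12 to -0.72 with known transcripts only, without a call. Others of those genes also changed sign, such as Atp6ap2, from 0.12 to -0.01 in the same setting. With 1 group of 2 libraries, leaving 1 out ends the tests between them. No paired analysis was possible because the series has 1 group. Depth limits what can be seen: a gene with 10 reads over both libraries can be called only at large ratios, and a count of 0 allows an expected count of up to 3 reads in a library.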
